A study of Mus musculus with 2 samples.

Results

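The signalling and lipid output genes of tuft cells, 10 in number, were followed through 2 single-cell RNA libraries of mouse thymic stroma: Trpm5, Plcb2, Gng13, Gnat3, Avil, Dclk1, Lrmp, Alox5, Alox5ap and Ptgs1. They were taken by symbol, and each of the 10 matched 1 of the 32285 genes in the count tables. Both libraries are total thymic stroma collected as the fraction left after magnetic removal of CD45+ blood cells, and both carry genotype E2F_M11, in which CRISPR-Cas9 removed 2 E2F binding sites from the proximal promoter of Foxn1. The labels give neither the age nor the sex of the mice and do not say whether the libraries came from different animals. The p-values therefore measure how unevenly differences between classes repeat in these 2 samples, a spread that may be technical. The wild-type libraries to which the study compared its mutant are not analysed here, and no value below measures an effect of the deletion. The comparisons are between cell classes inside the mutant stroma.

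Tuft cells are chemosensory epithelial cells, and in the thymus they are one of the mimetic cell types of the medulla, which take on the programmes of peripheral tissues. Their canonical cascade is that of type II taste cells: a receptor activates a G protein of the gustducin type, its beta-gamma part activates phospholipase C beta, inositol trisphosphate releases calcium, and calcium opens the cation channel TRPM5. Calcium also drives release of arachidonic acid, which 5-lipoxygenase and its activating protein turn into leukotrienes and the cyclooxygenases into prostaglandins, and tuft cells are known as an epithelial source of both.

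Tuft-like cells were found without using any of the 10 genes. A cell was called tuft-like when it held UMIs (unique molecular identifiers, 1 per captured transcript) of at least 2 of 14 other tuft genes, such as Pou2f3, Il25, Chat and Bmx, at least 5 such UMIs per 10000, and 1 UMI of Epcam, Krt8 or Krt18. The gate took 288 of 11774 cells: 78 of 3588 in library 1 (2.17%) and 210 of 8186 in library 2 (2.57%). All 14 gate genes were detected among the gated cells of both libraries. The libraries differ in depth, with a median of 8727 UMIs per cell in library 1 and 1874 in library 2, and 15464 and 2582 in their tuft-like cells. A tuft-like cell held a median of 9 gate genes in library 1 and 3 in library 2. The purity of the gate also differs: 63 of 78 gated cells of library 1 lay in the cluster named tuft-like, against 94 of 210 in library 2, where 62 more lay in the cluster with secretory genes and 24 in the keratinocyte-like cluster. Conversely, 110 cells of the tuft-like cluster of library 2 fell outside the gate, against 3 in library 1, and these were kept out of every class.

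Markers of other cell types were present in the tuft-like sums. Of 22 other marker lists, 13 had a higher summed level in library 2 and 9 a lower one. The 6 erythroid markers summed to 127 CPM (UMIs of a gene per 1000000 UMIs of the class) in library 1 and 1553 CPM in library 2, the 9 fibroblast markers to 422 and 1576 CPM, the 7 enterohepatic markers to 341 and 1312 CPM, the 10 keratinocyte markers to 1340 and 4428 CPM, and the 10 thymocyte markers to 125 and 577 CPM. The 8 macrophage markers were among the lists that went the other way, with 167 and 44 CPM. Of these 8, C1qa and C1qc had no UMI in tuft-like cells of either library, while the others were detected. Lyz2 had 179 UMIs in library 1 and 28 in library 2, Mrc1 21 and 9, and Cd68 10 and 7. Adgre1 had 8 and 0 UMIs, Csf1r 1 and 3, and C1qb 1 and 0. Of 7 mast cell and basophil genes 2 were at 0 in library 1 and 6 in library 2. Ptprc, which encodes CD45, stood at 64.3 and 127 CPM in tuft-like cells and at 54.2 and 146 CPM in fibroblast-like cells. Across kept cells, 13 barcodes occurred in both libraries. The part of these other markers in the results below was not tested.

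The class called keratinocyte-like here is a different mix in each library. At a finer clustering (resolution 2) 54 of its 72 cells in library 1 (75%) fell in a cluster led by Saa3, Saa1 and Apoc3, with 11262 CPM of enterohepatic markers there and 4077 CPM of keratinocyte markers, and 17 in a cluster led by Krtdap. In library 2 the split was 51 and 171 of 222 cells. Summed over the class, keratinocyte markers stood at 8825 and 15944 CPM and enterohepatic markers at 9180 and 3608 CPM, so its level of a gene in library 1 and in library 2 does not describe one cell type.

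The results turn on how narrowly each gene was used, and the promoter windows of 4 members are shown. Gnat3, Trpm5 and Avil had the largest shares of UMIs in tuft-like cells of library 1 (97%, 96% and 92.7%), and Ptgs1 the smallest (15.7%). In library 2 the share of Gnat3 was 49.2%, under those of Trpm5 (82.1%) and Avil (81%). Whether a motif goes with narrow use was not tested. They are RefSeq windows on GRCm38.p6 of 250 bases before to 50 after the transcription start, which 8 of the 10 members had. Capitals mark ATGCAA on either strand, the first letters of the octamer ATGCAAAT that POU proteins such as the tuft regulator POU2F3 are known to bind.
Trpm5, chr7:143094593-143094892, minus strand: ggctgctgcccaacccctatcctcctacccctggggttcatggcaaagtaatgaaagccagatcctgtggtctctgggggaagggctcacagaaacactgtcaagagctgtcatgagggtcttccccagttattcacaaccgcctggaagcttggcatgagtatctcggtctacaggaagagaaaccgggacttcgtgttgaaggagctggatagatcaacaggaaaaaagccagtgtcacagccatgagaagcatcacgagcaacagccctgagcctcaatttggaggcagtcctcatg
Gnat3, chr5:17962320-17962619, plus strand: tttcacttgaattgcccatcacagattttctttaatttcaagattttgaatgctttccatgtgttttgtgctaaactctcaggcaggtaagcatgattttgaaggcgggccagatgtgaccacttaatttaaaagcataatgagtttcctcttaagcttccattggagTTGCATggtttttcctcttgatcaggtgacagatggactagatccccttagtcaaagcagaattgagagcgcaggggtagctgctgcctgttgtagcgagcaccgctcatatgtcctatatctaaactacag
Avil, chr10:127000459-127000758, plus strand: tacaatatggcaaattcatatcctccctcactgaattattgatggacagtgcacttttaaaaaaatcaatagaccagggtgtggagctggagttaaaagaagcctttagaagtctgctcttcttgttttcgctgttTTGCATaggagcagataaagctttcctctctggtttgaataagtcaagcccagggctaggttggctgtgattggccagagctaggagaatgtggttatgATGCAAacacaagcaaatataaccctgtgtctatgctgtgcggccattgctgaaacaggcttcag
Ptgs1, chr2:36230176-36230475, plus strand: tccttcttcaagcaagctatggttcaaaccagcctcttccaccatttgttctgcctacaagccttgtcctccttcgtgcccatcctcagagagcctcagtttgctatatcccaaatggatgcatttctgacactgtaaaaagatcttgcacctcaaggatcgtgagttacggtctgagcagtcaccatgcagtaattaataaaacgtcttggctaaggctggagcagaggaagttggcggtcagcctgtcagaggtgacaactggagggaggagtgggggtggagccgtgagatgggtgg
The whole octamer ATGCAAAT, searched on both strands, was in none of the 10 windows of the 8 members, and 1.74% of all 32851 windows hold it. The shorter ATGCAA was in 2 of the 10, 1 match in Gnat3 and 2 in Avil, and 10.7% of all windows hold it. The windows of Gnat3 and Avil were 42% and 43% G and C, those of Trpm5 and Ptgs1 53% and 50.7%, and the median of all windows 52.7%.

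The taste cascade opens with Gnat3 and Gng13, the alpha and gamma subunits of gustducin. Gnat3 (ENSMUSG00000028777, chr5:17962549-18019834, plus strand, GRCm38) stood at 811 CPM in library 1 (1071 UMIs) and 247 CPM in library 2 (264 UMIs) in tuft-like cells. Library 1 was the higher, and the libraries differed more in this gene than in any of the other 9. In every other named class Gnat3 was at or under 6.94 CPM: 0 and 6.94 CPM in microfold-like cells, 1.2 and 2.86 CPM in medullary epithelium (mTEC-like), 0.477 and 2.37 CPM in fibroblast-like cells, and no UMI in endothelial-like or mural-like cells of either library. Against endothelial-like cells the level in tuft-like cells was at least 129.8-fold higher in library 1 and at least 33.7-fold higher in library 2, counted against a floor of 3 UMIs per library. Tuft-like cells held 97% of all Gnat3 UMIs of library 1 but 49.2% of those of library 2, where another 25.9% lay in cells of the tuft-like cluster outside the gate. Those ungated cells of library 2 stood at 673 CPM (139 UMIs), above the 247 CPM of the gated cells.

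Gng13 (ENSMUSG00000025739, chr17:25717171-25719406, plus strand) stood at 2270 CPM in library 1 (2999 UMIs) and 1455 CPM in library 2 (1554 UMIs) in tuft-like cells, and both values lay above those of every other class. Other classes used it at a low level. The microfold-like cells followed with 62.9 and 232 CPM, then mesothelial-like cells with 70.4 and 102 CPM, keratinocyte-like cells with 42.4 and 96.4 CPM and mTEC-like cells with 45.2 and 35 CPM, and the ranges of these neighbours overlapped. Within mTEC-like cells the clusters with Aire among their leading genes had 60.1 and 45.5 CPM, and the Ccl21a-high cluster 12.4 and 5.07 CPM, so the 2 libraries put the Aire-high clusters higher. Fibroblast-like cells had 0.774 and 7.98 CPM.

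Plcb2 (ENSMUSG00000040061, chr2:118707517-118728438, minus strand), the phospholipase that the beta-gamma subunits activate, stood at 420.1 CPM in library 1 (555 UMIs) and 179 CPM in library 2 (191 UMIs) in tuft-like cells. Library 1 was again the higher. Next in order were thymocyte-like cells with 42.6 and 17.1 CPM and secretory-like cells with 0 and 32 CPM, whose ranges overlapped. All other named classes were at or under 21.8 CPM. The 2168 thymocyte-like cells of library 2 held 28.9% of its Plcb2 UMIs, against 37.5% in tuft-like cells, and in library 1 tuft-like cells held 78.1%.

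Trpm5 (ENSMUSG00000009246, chr7:143069153-143094642, minus strand), the calcium-activated cation channel that ends the cascade, stood at 399.7 CPM in library 1 (528 UMIs) and 357 CPM in library 2 (381 UMIs) in tuft-like cells. The libraries were close to each other, and tuft-like cells held 96% of its UMIs in library 1 and 82.1% in library 2. In the other named classes it stayed at or under 15.5 CPM, the keratinocyte-like value of library 2, and it had no UMI in endothelial-like, mural-like or mesothelial-like cells of either library. In library 1, secretory-like, microfold-like and cortical epithelial (cTEC-like) cells had none either, and against cTEC-like cells the tuft-like level was at least 233-fold higher.

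**Figure D1:**
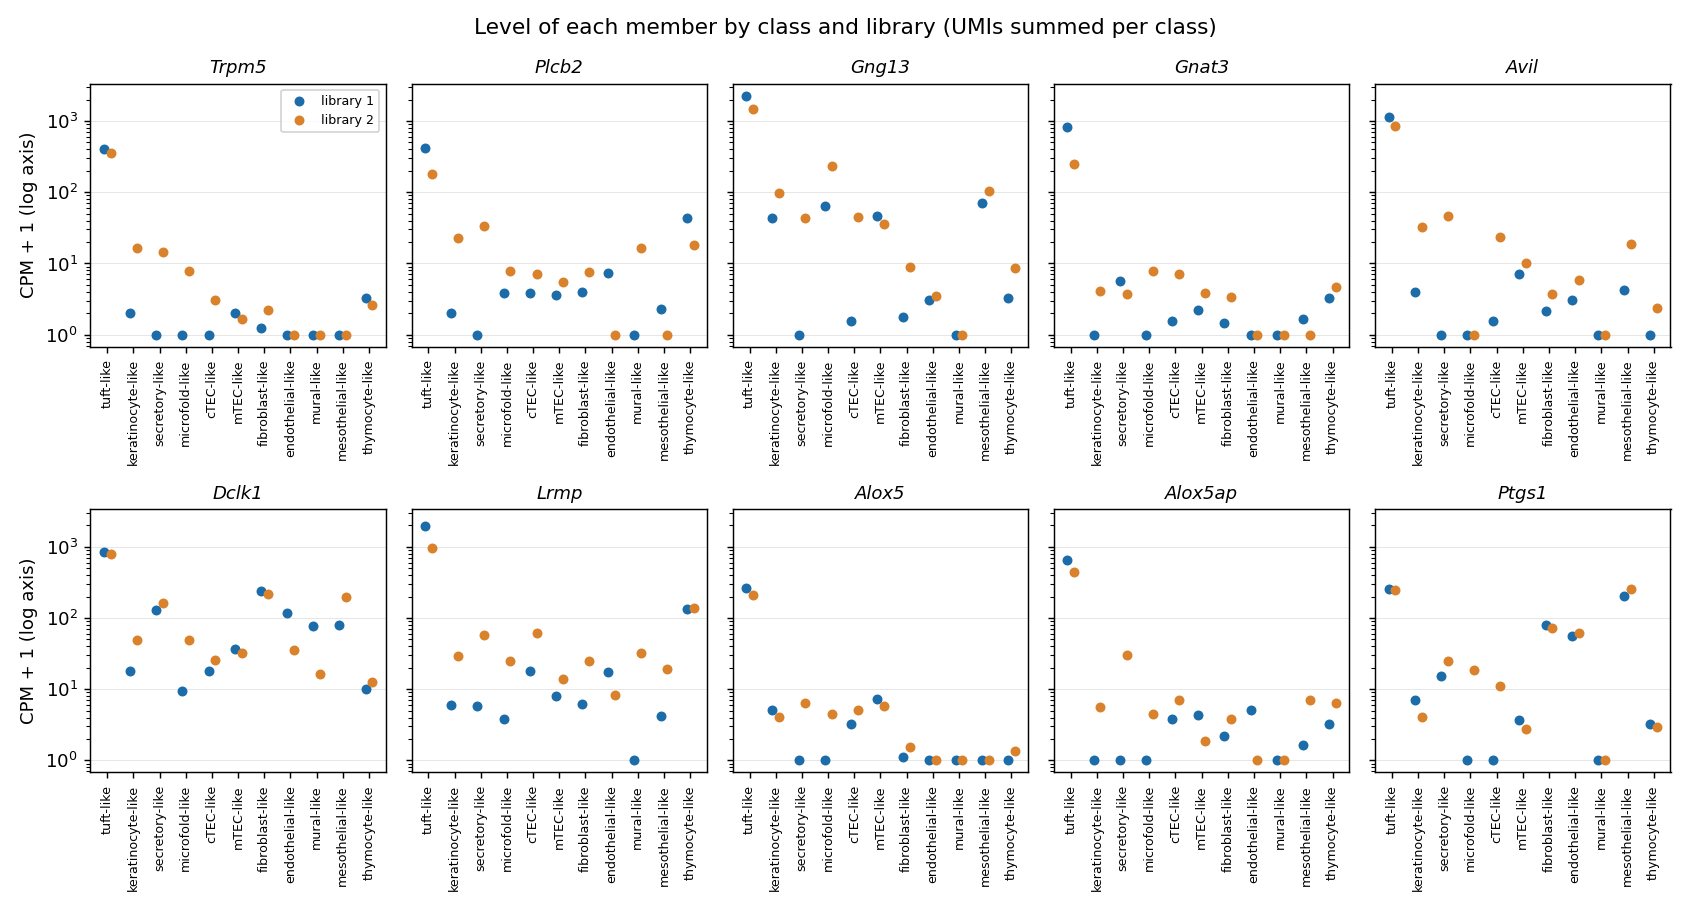
Level of each of the 10 genes in CPM + 1 on a log axis (UMIs summed per class), with 1 point per library and class. Among the named classes all 10 stand highest in tuft-like cells in both libraries except Ptgs1, for which mesothelial-like cells of library 2 reach 251 CPM. Outside the classes, ungated cells of the tuft-like cluster of library 2 had 673 CPM of Gnat3, above the 247 CPM of tuft-like cells. Points at 1 are classes with no UMI.

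Lrmp, Avil and Dclk1 belong to the cell biology around the cascade. Lrmp (ENSMUSG00000030263, chr6:145115653-145174934, plus strand), a membrane protein of the endoplasmic reticulum that binds inositol trisphosphate receptors and is also known from developing lymphocytes, stood at 1928 CPM in library 1 (2547 UMIs) and 954 CPM in library 2 (1019 UMIs) in tuft-like cells. Thymocyte-like cells followed with 135 and 138 CPM, above the range of every remaining named class, of which cTEC-like cells with 17.1 and 60.7 CPM came next. An unnamed cluster with B cell markers reached 142 and 117 CPM. In all, 40.04% of the Lrmp UMIs of library 2 lay in thymocyte-like and 34.5% in tuft-like cells, while library 1, with 138 thymocyte-like cells, had 88% in tuft-like cells.

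Avil (ENSMUSG00000025432, chr10:127000709-127020994, plus strand), the actin-bundling protein advillin of the villin family, stood at 1130 CPM in library 1 (1493 UMIs) and 849.9 CPM in library 2 (908 UMIs) in tuft-like cells. The next class, secretory-like cells, had 0 and 45.4 CPM, and its range overlapped that of keratinocyte-like cells with 3.03 and 31.1 CPM. Microfold-like and mural-like cells had no UMI in either library. Tuft-like cells held 92.7% and 81% of all Avil UMIs.

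Dclk1 (ENSMUSG00000027797, chr3:55242364-55539068, plus strand), a microtubule-associated kinase long used to stain tuft cells, was the opposite case. It stood at 829 CPM in library 1 (1095 UMIs) and 785 CPM in library 2 (839 UMIs) in tuft-like cells, nearly the same in both libraries. But fibroblast-like cells had 242 and 218 CPM, secretory-like cells 129 and 163 CPM and mesothelial-like cells 78.9 and 197 CPM, with overlapping ranges for the last 2. Fibroblast-like cells were far more numerous and held 67.1% and 53.9% of all Dclk1 UMIs, against 18.1% and 22.4% in tuft-like cells. Among mTEC-like cells the Ccl21a-high cluster had 73.5 and 71 CPM and the Aire-high clusters 18.6 and 17.6 CPM. RefSeq gives this gene 2 promoter windows, and counts per gene do not separate transcripts from the 2 starts.

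The 3 eicosanoid genes split in the same way. Alox5 (ENSMUSG00000025701, chr6:116410077-116461178, minus strand), 5-lipoxygenase, stood at 259.6 CPM in library 1 (343 UMIs) and 208 CPM in library 2 (222 UMIs) in tuft-like cells and at or under 6.19 CPM in every other named class. Its second site was within mTEC-like cells: the Ccl21a-high cluster had 15.7 and 16.9 CPM, the Aire-high clusters 1.88 and 0.595 CPM. Endothelial-like, mural-like and mesothelial-like cells had no UMI in either library. Tuft-like cells held 79.4% and 76% of all Alox5 UMIs.

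Alox5ap (ENSMUSG00000060063, chr5:149264767-149288153, plus strand), the protein that presents arachidonic acid to 5-lipoxygenase, stood at 643 CPM in library 1 (850 UMIs) and 447 CPM in library 2 (477 UMIs) in tuft-like cells. Among the other named classes its highest value was 29.4 CPM, in secretory-like cells of library 2, where 11 UMIs were counted, and library 1 had none in those cells. Tuft-like cells held 91.3% and 78.1% of its UMIs. Both genes of the 5-lipoxygenase step thus had most of their UMIs in tuft-like cells in both libraries. An unnamed cluster with B cell markers had 56.6 and 0 CPM of Alox5ap.

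Ptgs1 (ENSMUSG00000047250, chr2:36230426-36252272, plus strand), cyclooxygenase 1, stood at 251 CPM in library 1 (331 UMIs) and 245 CPM in library 2 (262 UMIs) in tuft-like cells. Mesothelial-like cells, with 204 and 251 CPM, had an overlapping range, so the 2 classes were not separated. Fibroblast-like cells came next with 79.3 and 70.9 CPM and endothelial-like cells with 54.1 and 61.1 CPM. In contrast, mTEC-like cells had 2.75 and 1.76 CPM and keratinocyte-like cells 6.05 and 3.11 CPM. Secretory-like cells had 14.3 and 24 CPM, microfold-like cells 0 and 17.3 CPM and cTEC-like cells 0 and 10.1 CPM. Among the named epithelial classes Ptgs1 was thus highest in tuft-like cells, which took in the gated cells of the secretory-like cluster. Fibroblast-like cells held 63.1% and 55.9% of all Ptgs1 UMIs and tuft-like cells 15.7% and 22.3%.

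**Figure D2:**
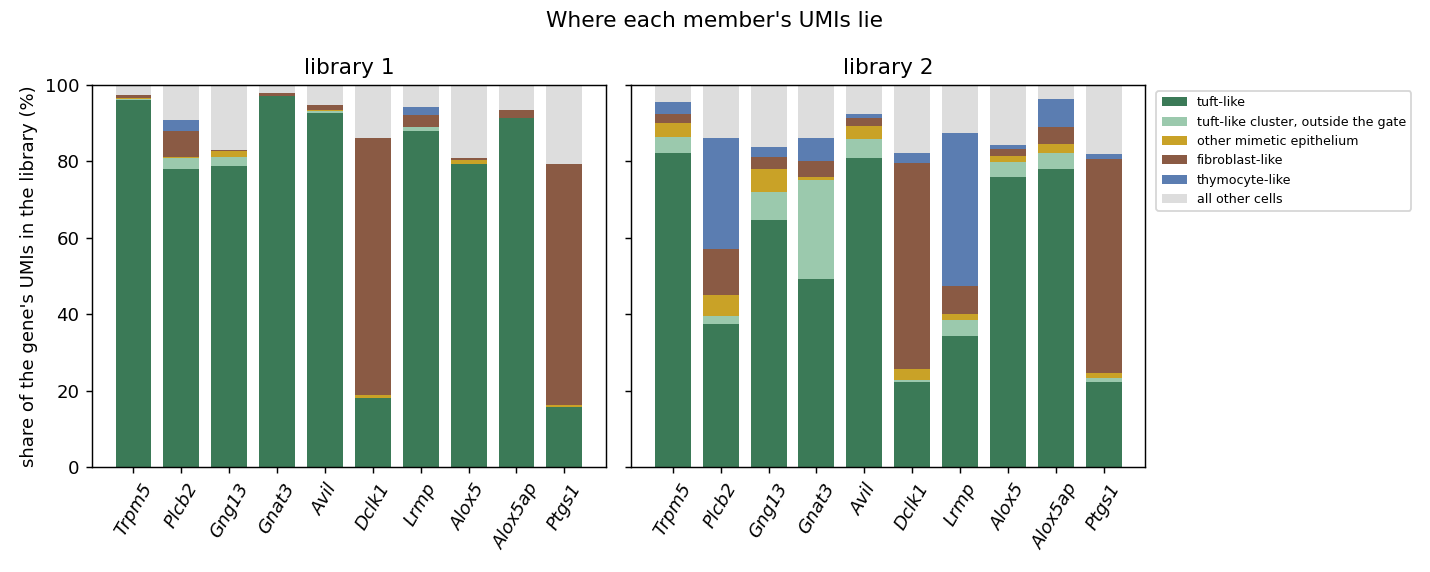
Share of each gene's UMIs (percent of the library's total for that gene) that lies in tuft-like cells, in cells of the tuft-like cluster outside the gate, and in 3 other classes, per library. Dclk1 and Ptgs1 lie mostly in fibroblast-like cells in both libraries, and Lrmp and Plcb2 shift towards thymocyte-like cells in library 2, which held 2168 of them.

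Some members overlap other genes in the annotation (GENCODE vM21), and the sources used here do not state whether counting used strand. Chtf18 overlaps Gng13 on the opposite strand, Tssc4 overlaps Trpm5, Tsfm overlaps Avil and Casc1 overlaps Lrmp. These partners did not share the pattern: in tuft-like cells Tssc4 stood at 8.33 and 7.49 CPM and Tsfm at 24.2 and 19.7 CPM, while fibroblast-like cells had 30.1 and 27.7 CPM of Tssc4 and 22.4 and 19.9 CPM of Tsfm.

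All 10 members were higher in tuft-like cells than in the other mimetic epithelium, which pools the keratinocyte-like mixture with secretory-like and microfold-like cells (123 and 422 cells). Gated cells that lay in its clusters were counted as tuft-like and taken out of it, so this partner is not independent of the gate. At an adjusted p of at most 0.05 in edgeR's quasi-likelihood test on summed UMIs, with the library as a block and Benjamini-Hochberg adjustment over 13880 genes, 423 genes or 3.05% were called higher and 458 or 3.3% lower, 6.35% in either direction. With library totals in place of TMM scaling, these counts were 509 and 299. Trpm5, Gnat3, Alox5 and Alox5ap passed the low-count filter only through the tuft-like sums, so in all 3 comparisons they could only come out higher. The other 6 passed without those sums, and 6 of 6 were called higher against each partner. Without the keratinocyte-like class the 10 were called as well, with log2 differences of 3.19 for Dclk1 to 7.34 for Gnat3. Gnat3 had the largest fitted difference, 7.89 on the log2 scale (SE 0.95, edgeR adjusted p = 0.000659), and Dclk1 the smallest, 3.75 (SE 0.54, adjusted p = 0.00148). The median of the 10 was 5.95, and of all genes tested -0.07. With the gated cells of the tuft-like cluster alone, or with the gated cells that held the fewest blood marker UMIs, all 10 were called as well, both alternatives chosen after seeing the data.

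The size of these differences depended on the library, and each was smaller in library 2. For the gustducin alpha subunit Gnat3 the log2 difference was 9.26 in library 1 and 5.69 in library 2. For the channel Trpm5 it was 8.25 and 4.59, and for Plcb2 7.68 and 2.90. Alox5ap, with no UMI in the other mimetic epithelium of library 1, had 10.11 and 5.09, where the first value depends on the small count added before taking logs; against a floor of 3 UMIs it was at least 333-fold higher in that library. Lrmp gave 8.39 and 4.61, Avil 8.66 and 4.75, and Gng13 5.57 and 3.57. The libraries were closer for Alox5 (6.21 and 5.44), Ptgs1 (5.12 and 4.13) and Dclk1 (4.56 and 3.14). The levels on the other side moved with the library too: the other mimetic epithelium held 0.645 CPM of Trpm5 in library 1 (1 UMI) and 13 CPM in library 2 (17 UMIs), and 4.51 and 35.2 CPM of Lrmp.

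Against mTEC-like cells (850 and 689 cells), the medullary epithelium outside the named mimetic classes, all 10 members were again higher. Of the genes tested 6.92% were called higher and 5.99% lower, 12.9% in either direction. This partner was not free of mimetic markers. Its neuroendocrine markers summed to 472 and 478 CPM, beside 320 and 192 CPM in the other mimetic epithelium. Keratinocyte markers went the other way, with 280 and 309 CPM beside 6228 and 9505 CPM. Trpm5 led with a log2 difference of 8.51 (SE 0.72, edgeR adjusted p = 6.11e-05). Library 1 taken alone gave 7.90 for Trpm5 and library 2 gave 8.09, both under the fitted value. The ratios of CPM were 387 and 540, on 12 and 3 UMIs in mTEC-like cells. Single-library and fitted values are thus not the same measure. Gnat3 followed with 8.16 (SE 0.85; 8.77 in library 1 and 6.08 in library 2) and Alox5ap with 7.68 (SE 0.79; 7.28 in library 1 and 8.18 in library 2). Ptgs1, which did not stand apart from mesothelial-like cells, differed from mTEC-like cells by 6.58 (SE 0.56, edgeR adjusted p = 2.05e-05). Dclk1 had the smallest difference, 4.49 (SE 0.55). For Alox5 the difference of 5.28 (SE 0.38) fell to 3.77 when the Aire-high clusters were left out and the Ccl21a-high cluster alone was the partner, and it was still called. The median over the 10 was 6.85, beside -0.07 over all genes.

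Against the remaining stroma, taken as the mean log level of cTEC-like, mTEC-like, fibroblast-like, endothelial-like and mesothelial-like cells, all 10 members were called higher, where 16.2% of all genes were, beside 8.33% lower and 24.5% in either direction. Mural-like cells had 19 cells in library 2, under the minimum of 20, and were not in the fit. Trpm5 gave 10.71 (SE 0.55), Gnat3 9.63 (SE 0.59) and Alox5 9.25 (SE 0.35), all against classes with few or no UMIs. These fitted values therefore depend on the count added before logs. The 3 genes also passed the low-count filter only through the tuft-like sums and could only come out higher. Ptgs1 and Dclk1 gave the smallest, 3.31 (SE 0.32, edgeR adjusted p = 7.17e-06) and 3.43 (SE 0.32, edgeR adjusted p = 6e-06). Library 1 alone gave 3.67 for Ptgs1 and 3.44 for Dclk1, and library 2 gave 2.90 and 3.49. With the 3 non-epithelial classes alone as partner, the Ptgs1 difference fell to 1.14 with an adjusted p of 0.0201 in edgeR, its largest move under any alternative. The median of the members was 7.5 and of all genes 0.01.

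**Figure D3:**
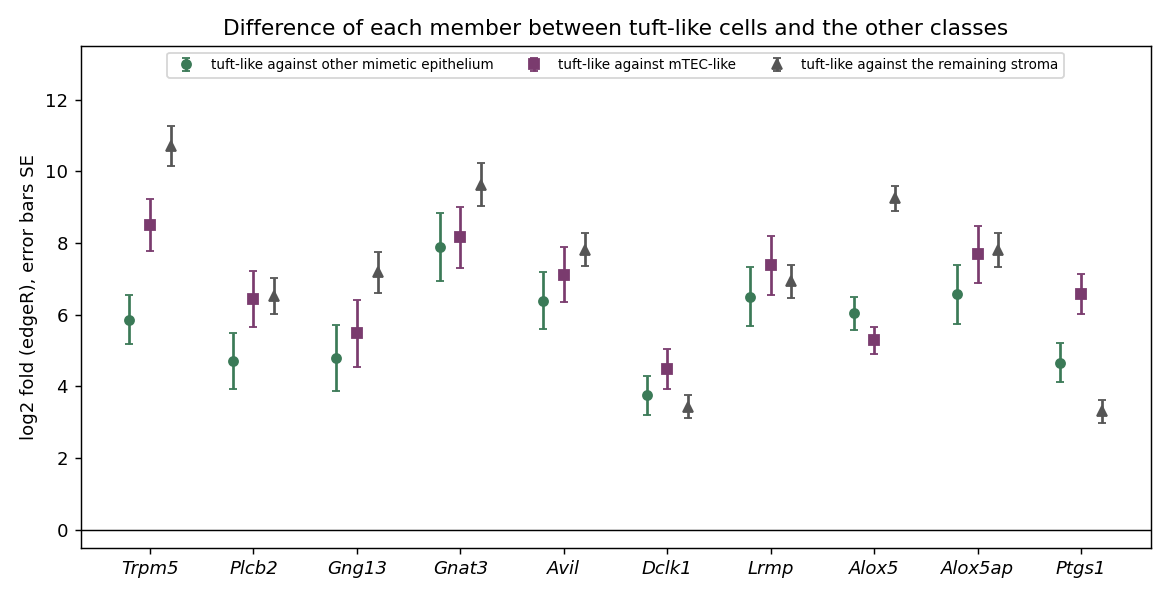
Log2 difference of each gene between tuft-like cells and 3 partners, fitted by edgeR over 16 sums of 8 classes and 2 libraries, with SE as error bars. Every point lies above 0, and Dclk1 is at the low end against each partner, together with Ptgs1 against the remaining stroma. Trpm5, Gnat3, Alox5 and Alox5ap passed the low-count filter only through the tuft-like sums and could only come out higher.

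Detection in single cells was compared after each cell had been thinned to 1000 UMIs, with exact binomial intervals of 95% that cover counting error only. Gng13 was seen in 74.4% (63.2% to 83.6%) of tuft-like cells in library 1 and 49.5% (42.6% to 56.5%) in library 2. Lrmp was seen in 71.8% (60.5% to 81.4%) and 56.2% (49.2% to 63%), and Avil in 64.1% (52.4% to 74.7%) and 41.4% (34.7% to 48.4%). Fewer cells showed Ptgs1, 24.4% (15.3% to 35.4%) and 16.7% (11.9% to 22.4%), and Alox5, 29.5% (19.7% to 40.9%) and 8.1% (4.79% to 12.6%). At the same depth fibroblast-like cells showed Gng13 in 0.0549% and 1.81% of cells, Lrmp in 0.549% and 4.58%, and Avil in 0.165% and 0.5%. The broader members were seen more widely. Dclk1 was seen in 20.7% and 14.2% of fibroblast-like cells, beside 41% and 32.9% of tuft-like cells. Mesothelial-like cells showed Ptgs1 in 21.3% and 31.4% of cells, above the tuft-like share in library 2. Secretory-like cells of library 2 showed Gng13, Lrmp and Avil in 7.61%, 12% and 7.61% of cells, below the tuft-like shares. The gate had already counted other cells of their cluster as tuft-like, so these lower shares are not independent of the gate. The other 5 members were seen in 29.5% to 41% of tuft-like cells in library 1 and 14.3% to 32.9% in library 2. Before thinning, the shares were 91% and 72.9% for Gng13 and 70.5% and 31.4% for Ptgs1.

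At 1000 UMIs a tuft-like cell showed a median of 5 members in library 1 and 3 in library 2, and at least 3 of the 10 were seen in 60 of 78 cells (76.9%) and 117 of 210 cells (55.7%). No member was seen in 6 and 28 cells. In each of the 10 other named classes the median was 0 in both libraries. The share of cells with at least 3 members was highest there in secretory-like cells of library 2, with 6 of 92 cells (6.52%), and in mesothelial-like cells of that library, with 2 of 35 (5.71%). The 110 cells of the tuft-like cluster that the gate missed in library 2 showed a median of 2.

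Among tuft-like cells most members were highest in the cells with the most gate genes, and Gnat3 was the least regular of those compared here. Dclk1 and Alox5ap did not rise at each step in library 1. The cells were split by the number of gate genes they held (2, 3, 4 to 6, or 7 and more). This count did not use the members, but the gate genes are tuft genes too, and it is tied to depth. High levels of members in the last group are therefore not separate support for their use in tuft-like cells. Library 1 has 5, 5, 10 and 58 cells in these groups and library 2 has 80, 47, 44 and 39. In that order Dclk1 stood at 54.8, 23.6, 62.1 and 1043 CPM in library 1 and 225, 283, 456 and 1157 CPM in library 2. Alox5ap stood at 36.6, 11.8, 48.3 and 810.2 CPM in library 1 and 118, 217, 241 and 657 CPM in library 2. Both were thus highest in the last group of each library, as were Alox5, Ptgs1, Avil, Trpm5 and Gng13.

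Lrmp stood at 201, 23.6, 2483 and 2097 CPM in library 1 and 542, 886, 628 and 1200 CPM in library 2, and Plcb2 at 73.1, 129.9, 497 and 451 CPM in library 1 and 96.6, 65.9, 193 and 221 CPM in library 2. In both genes the third group was the highest in library 1 and the last in library 2. Gnat3 stood at 165, 0, 945 and 892 CPM in library 1 and 284, 349, 150.2 and 248 CPM in library 2, with no order that the libraries shared. Few cells carried some of these sums: thinned to 1000 UMIs, Gnat3 was seen in 1 of the 10 cells behind its 945 CPM (10.0%) and in 21 of 58 cells of the last group (36.2%). In library 2 it was seen in 9 of 44 (20.5%) and 3 of 39 (7.69%). These are sums over cells of 1 library each, given without a test.

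**Figure D4:**
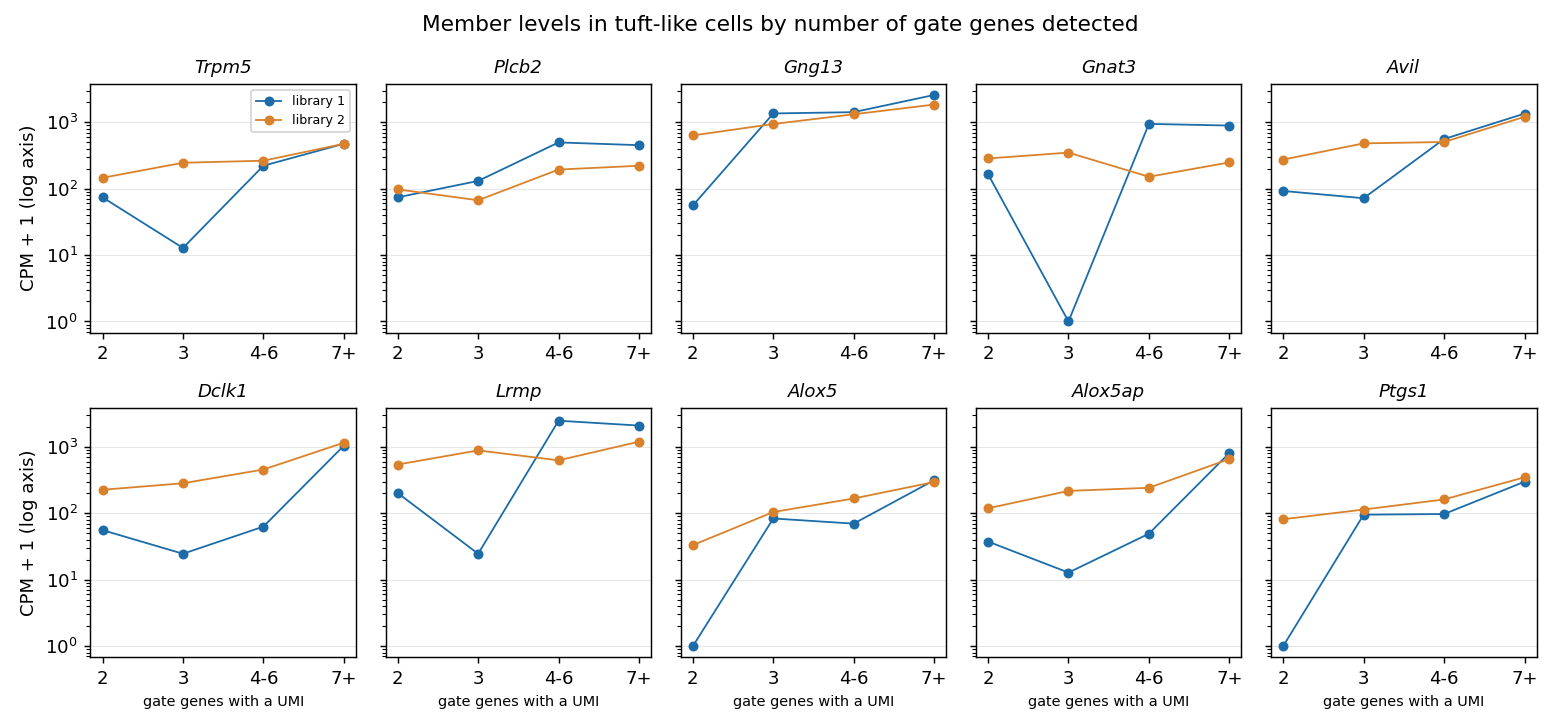
Level of each gene in tuft-like cells (CPM + 1, log axis) by the number of gate genes with a UMI, 1 line per library. In library 1 the bins of 2 and 3 genes hold 5 cells each; Dclk1 and Alox5ap are highest in the last bin of both libraries, and Gnat3 shows no order shared by the libraries.

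Clusters gave a further view, since all 10 genes were held out of the clustering. Gated cells of the tuft-like cluster had 1040 CPM of Gnat3 and 1122 CPM of Dclk1 in library 1, and 428 and 955 CPM in library 2. The 110 ungated cells of that cluster in library 2 had 673 CPM of Gnat3 (139 UMIs) but 58.1 CPM of Dclk1 (12 UMIs) and 58.1 CPM of Ptgs1. An unnamed cluster found in library 2 alone, led by Gnat3, had 669 CPM of Gnat3 and 211 CPM of Dclk1 in its 26 ungated cells. The 62 gated cells of the secretory-like cluster of library 2 were the reverse, with 104 CPM of Gnat3 and 1096 CPM of Dclk1. The 5 gated cells of that cluster in library 1 went the other way, with 856 CPM of Gnat3 and 137 CPM of Dclk1, so the reversal was not repeated.

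Across the deeper tuft-like cells, thinned to 5000 UMIs (71 cells in library 1 and 44 in library 2), 44 of the 45 pairs of members had a positive Spearman's rho in each library, with a median of 0.36 in library 1 and 0.38 in library 2. The highest pair of library 1 was Avil and Alox5ap (0.72 in library 1 and 0.62 in library 2), and that of library 2 Avil and Lrmp (0.52 in library 1 and 0.78 in library 2). Avil and Dclk1 had 0.65 in library 1 and 0.67 in library 2, and Lrmp and Alox5ap 0.46 in library 1 and 0.63 in library 2. The values of Gnat3 were uneven. With Lrmp it had 0.58 in library 1 and 0.43 in library 2, with Alox5ap 0.32 in library 1 and 0.43 in library 2, and with Dclk1 0.07 in library 1 and 0.36 in library 2. With Alox5 it had 0.11 in library 1 and 0.06 in library 2, and with Ptgs1 -0.05 in library 1 and 0.18 in library 2. Gnat3 had no UMI in 35 of the 71 cells of library 1 and reached 54 of 5000 UMIs in another. These are descriptions over cells that share a library, with low counts per cell. The gated cells they were drawn from lay in the tuft-like cluster and in others. The part of that mix in the values was not tested.

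**Figure D5:**
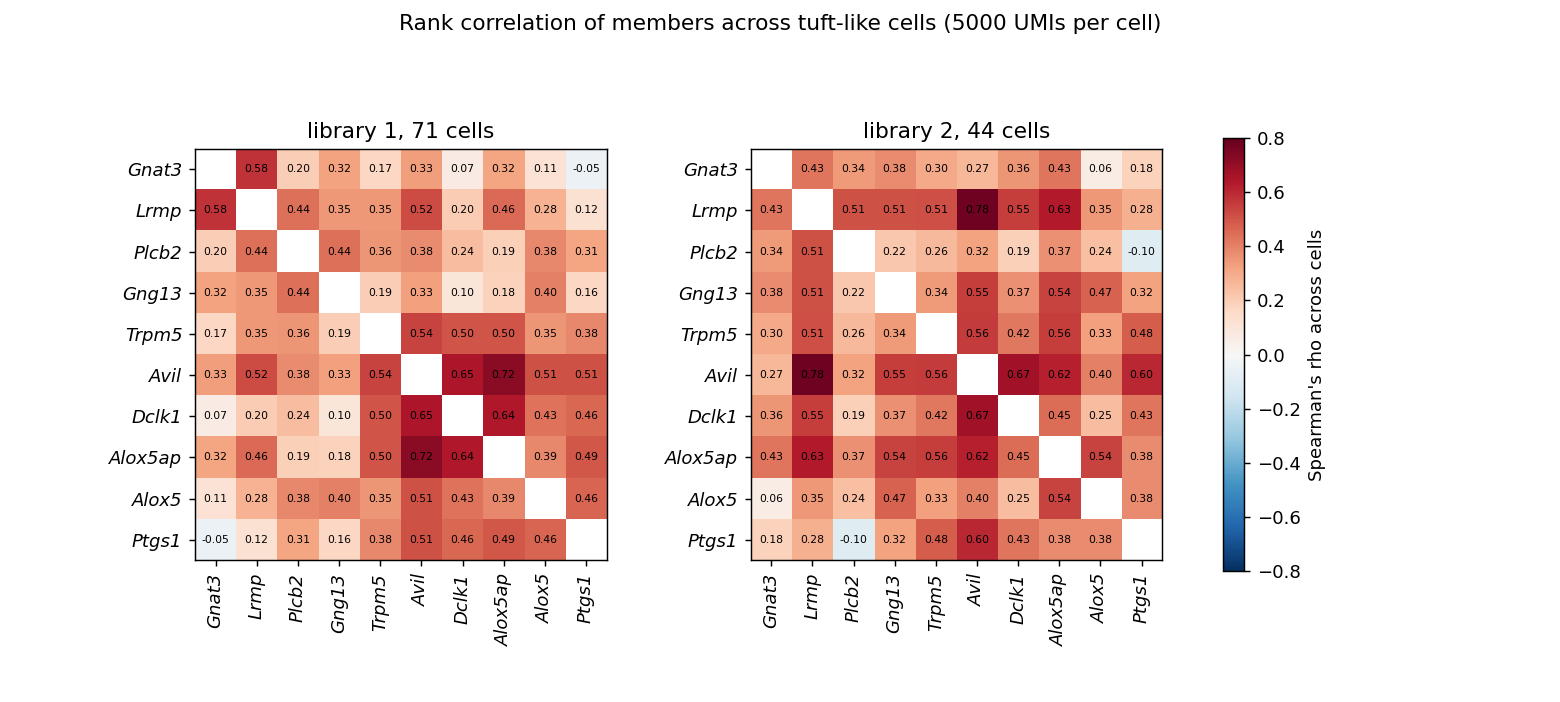
Spearman's rho between each pair of genes across tuft-like cells of 1 library, each cell thinned to 5000 UMIs (71 and 44 cells). Avil, Dclk1 and Alox5ap form the block of highest values in library 1, and the values of Gnat3 with Alox5 are low in both libraries.

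Other genes of the taste cascade followed the members in part. Of 33 listed genes, 19 were measured well enough to test; 10 of the 14 that were not are taste receptor genes. Against other mimetic epithelium 4 of 19 (21.1%, beside 3.05% of all genes) were higher and none lower in edgeR (median log2 difference 1.29, all genes -0.07; none lower at an unadjusted p under 0.05 or in DESeq2): Gnb3, the gustducin beta subunit, Plcg2, Rgs21 and Itpr2, a receptor for inositol trisphosphate. Tas1r3, Tas2r105, Gnb3 and Rgs21 passed the filter only through the tuft-like sums and could only come out higher; of the other 15, 2 were higher against this partner, 5 against mTEC-like cells and 9 against the remaining stroma. Gnb3 stood at 582 and 359 CPM in tuft-like cells and 1.29 and 6.89 CPM in the other mimetic epithelium, a difference of 6.78 (SE 0.65, edgeR adjusted p = 0.000116). Rgs21, a regulator of G protein signalling known from taste cells, stood at 94.6 and 13.1 CPM in tuft-like cells (125 and 14 UMIs) against 0 and 1 UMIs in the other mimetic epithelium. Plcg2, a phospholipase C of another family, stood at 128 and 110.5 CPM in tuft-like cells and 11 and 12.2 CPM in the other mimetic epithelium. Against mTEC-like cells 9 of 19 (47.4%, beside 6.92% of all genes) were higher and none lower in edgeR (median 1.008, all genes -0.07; none lower at an unadjusted p under 0.05 or in DESeq2). The taste receptors counted among them are Tas2r105 (55 and 10 UMIs in tuft-like cells and none in mTEC-like cells) and Tas1r3 (34 and 10 UMIs in tuft-like cells, 4 and 0 UMIs in mTEC-like cells). Against the remaining stroma 13 of 19 (68.4%, beside 16.2% of all genes) were higher and 3 (15.8%, beside 8.33%) lower (median 2.03, all genes 0.01), the latter Itpr1 (-1.24), Gna11 (-1.11) and Gnaq (-0.91). Tas2r105 and Rgs21 had no UMI in several stromal classes, so their fitted differences there are not printed.

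Eicosanoid genes outside the members were called in both directions, in shares near those of all genes for some comparisons. Of 47 gene entries 33 were tested, and against other mimetic epithelium 4 (12.1%, beside 3.05% of all genes) were higher and 1 (3.03%, beside 3.3%) lower (median -0.57, all genes -0.07). An unadjusted p under 0.05 put 4 higher and 6 lower. Ltc4s, which makes leukotriene C4 downstream of Alox5, stood at 494 and 394 CPM in tuft-like cells and 16.8 and 70.4 CPM in the other mimetic epithelium, a difference of 3.33 (SE 0.62, edgeR adjusted p = 0.00733). Hpgds, a prostaglandin D synthase, stood at 201 and 100.2 CPM and 26.4 and 8.42 CPM (2.96, SE 0.44, edgeR adjusted p = 0.00252), and Mgst3 at 262 and 157 CPM and 58 and 42.1 CPM (1.90, SE 0.43). The inducible cyclooxygenase Ptgs2 was the one gene lower, at 34.8 and 14 CPM in tuft-like cells and 113 and 63.5 CPM in the other mimetic epithelium (-2.01, SE 0.47, edgeR adjusted p = 0.0253). The 2 cyclooxygenases therefore differed in sign, since Ptgs1 was higher by 4.65 in the same fit. Inside that pooled partner Ptgs2 was uneven, at 167 and 73.1 CPM in keratinocyte-like and 20 and 121 CPM in microfold-like cells. Secretory-like cells, with 9.52 and 2.67 CPM, lay below tuft-like cells in both libraries. Against mTEC-like cells 9.09% were higher and 6.06% lower, beside 6.92% and 5.99% of all genes, and an unadjusted p under 0.05 put 4 higher and 7 lower. The 3 higher and 2 lower were Ltc4s (4.47), Hpgds (3.20) and the phospholipase Plaat3 (0.89), then Ggt5 (-2.59) and Ptgs2 (-2.28; median -0.49, all genes -0.07). Against the remaining stroma 11 (33.3%, beside 16.2%) were higher, led by Hpgds (5.98), Alox8 (on 10 and 2 UMIs in tuft-like cells, through which alone it passed the filter) and Ltc4s (3.97), and 2 (6.06%, beside 8.33%) lower, Tbxa2r (-2.58) and Ggt5 (-1.22; median 0.34, all genes 0.01).

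Counted in either direction, close relatives of the members were called about as often as all genes against 2 of the 3 partners. Of 34 such genes (other TRPM channels, phospholipase C beta isoforms, G protein subunits, villin family genes and the like), 24 were tested, and against other mimetic epithelium none was called in either direction by edgeR (median -0.52, all genes -0.07). At an unadjusted p under 0.05 in edgeR 2 were higher and 3 lower, and DESeq2 called 1 higher and 1 lower. Against mTEC-like cells 4 (16.7%, beside 6.92% of all genes) were higher: Gnai1 by 3.01, Gng12 by 0.96, Svil by 0.89 and Flii. None was lower in edgeR, beside 5.99% of all genes (median 0.20, all genes -0.07). In either direction 16.7% were thus called, beside 12.9% of all genes. At an unadjusted p under 0.05 in edgeR 5 were higher and 6 lower, and DESeq2 had 0 lower. Against the remaining stroma 29.2% were called in either direction, beside 24.5% of all genes: 3 higher (Vil1 4.59, Vill, which passed the filter only through the tuft-like sums, and Capg 0.83) and 4 lower, with Mrvi1 (-3.50), the paralogue of Lrmp, Gng11 (-3.04) and Gng10 (-0.99) the lowest (median 0.09, all genes 0.01). Vil1, the relative of Avil, stood at 29.5 and 19.7 CPM in tuft-like cells and 95.4 and 23.7 CPM in the other mimetic epithelium.

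The genes most alike to the mean of the members, by Pearson's r over the 16 sums of class and library, were Il25 (0.98), 1810046K07Rik (0.98), Ovol3 (0.97), Ly6g6f (0.97) and A630073D07Rik (0.97). Il25, the tuft cell cytokine, and Ly6g6f are gate genes, so their likeness follows in part from how the cells were chosen. A630073D07Rik stood at 401 and 438 CPM in tuft-like cells, Ovol3 at 178 and 44 CPM and 1810046K07Rik at 208 and 140 CPM, and none passed 4.59 CPM in any other sum of the fit. Among the members themselves, r with that mean ran from 0.97 for Trpm5 and Alox5ap down to 0.74 for Dclk1 and 0.53 for Ptgs1. The sums share libraries and depth, and the values describe likeness of level only.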

How the data were processed

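The values are UMI counts, not normalized, as deposited by the authors for 2 libraries (10x 3' chemistry, 41075328 and 42583831 UMIs over 5110 and 19163 barcodes). Per the submitters' processing notes, Cell Ranger 7, Seurat 4 and mm10 were used; per the file headers, Cell Ranger 6.0.0. Barcodes under 500 genes or 1000 UMIs, or above 10% mitochondrial UMIs, were dropped. Leiden clustering (scanpy 1.11.5, resolution 1, 30 components) ran without the members, gate genes and listed pathway genes, and gave 46 clusters, of which 25 were named from marker lists; the scoring rule for names was written after the clusters had been seen. UMIs were summed per class and library and tested with edgeR 4.0.16 (quasi-likelihood, TMM, low-count filter, library as block, 7 residual degrees of freedom); classes entered with at least 20 cells in each library. The library is the block because both libraries hold every class. The test was checked on simulated data: against other mimetic epithelium it called 74.0% of 50 genes raised by 2 on the log2 scale, 54.5% of 44 lowered by 2, 8.51% of 47 raised by 1 and 16.3% of 49 lowered by 1, so a small change would usually be missed. Of all genes tested, 236 passed the low-count filter only through the tuft-like sums. Scrublet called 1 of 3588 and 0 of 8186 cells doublets, too few to have worked, so none were removed. CPM are UMIs of a gene per 1000000 UMIs of a class. Named genes were all members, the 3 highest and 3 lowest called genes of each list in each comparison and the 5 genes most alike. The members and lists were chosen with earlier results of these data known. Among listed symbols, 2 were matched by RefSeq synonyms. Alternatives included DESeq2 1.42.0, other gates, filters and clusterings.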

Additional observations from a re-analysis of the deposited data

How the results depend on the processing

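All 10 members were called higher in tuft-like cells against each of the 3 partners under all alternatives that gave a test. These were 14 against other mimetic epithelium, 14 against mTEC-like cells and 15 against the remaining stroma. DESeq2 and the fit without the replicate block were among them. The log2 differences kept their sign in each library alone, that is, without replicate 1 and without replicate 2. In the main fit 4 members (Trpm5, Gnat3, Alox5 and Alox5ap) passed the low-count filter only through the tuft-like sums and could only come out higher. Only the repeated calls of the other 6 bear on how far the direction depends on the processing. Without the replicate block all 10 were called against each partner, and the counts of genes called higher and lower were 387 and 379 against other mimetic epithelium, 885 and 693 against mTEC-like cells and 2192 and 1058 against the remaining stroma, each within 1.5 times of the main count. Other settings moved the counts of all genes called. Against other mimetic epithelium (423 higher, 458 lower) the counts were 732 higher and 1410 lower with the tuft-like cluster in place of the gate, 802 and 1413 with the gated cells of that cluster alone, and 231 and 285 without the minimum rate of gate UMIs; those lower were 856 without the low-count filter, 299 without TMM, 299 at resolution 0.5 and 730 at 10 gate UMIs per 10000. Against mTEC-like cells (961 and 832) there were 452 and 143 without the minimum rate, 1789 higher without the Aire-high clusters, and 1448, 1371 and 1527 lower without the low-count filter, with the cluster, and with its gated cells. Against the remaining stroma (2242 and 1156) 1351 were higher with the stroma pooled and 1943 lower with non-epithelial classes alone. The cause was not tested. Library sizes by totals moved the median of all genes by 0.15 against other mimetic epithelium and by 0.15 against the remaining stroma.

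Depth limited detection per cell. The mean number of members seen per tuft-like cell was 3.59 at 1000 UMIs (2.79 without replicate 1 and 4.38 without replicate 2) and 6.38 unthinned, and the mean share of tuft-like cells with a UMI of a member was 35.9% (27.9% and 43.8%) at 1000 UMIs and 63.8% unthinned. Removing gated cells with any blood marker UMI left 2 and 3 cells, so that alternative was not run; 2 alternatives chosen after seeing the data, the gated cells of the tuft-like cluster and the gated cells with the fewest blood marker UMIs, kept all 10 calls.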

Other observations

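Several eicosanoid genes had high levels outside tuft-like cells; they were picked after their values had been seen and were not tested between these classes. Ltc4s, which pairs with Alox5 in the leukotriene branch, stood at 299.9 and 265 CPM in fibroblast-like cells, which had 0.119 and 0.539 CPM of Alox5, beside 494 and 394 CPM in tuft-like cells. Hpgd, the enzyme that inactivates prostaglandins, stood at 617 and 314 CPM in cTEC-like cells, 122 and 109.6 CPM in mTEC-like cells and 157 and 22.5 CPM in tuft-like cells, so that the tuft-like values of the libraries lay far apart. Ptges, a prostaglandin E synthase, stood at 73.1 and 161 CPM in mesothelial-like cells and 97.8 and 65.8 CPM in fibroblast-like cells, the classes that also carried Ptgs1. Ptgs2 stood at 114 and 102 CPM in mTEC-like cells and Pla2g4a, the cytosolic phospholipase A2, at 143 and 143 CPM there and 140.0 and 110.5 CPM in tuft-like cells.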
